A study of Mus musculus with 4 samples.

Results

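The Ly6 genes studied here are 6 members of a family of small surface proteins, namely Ly6a, Ly6c1, Ly6c2, Ly6e, Ly6h and Ly6k. They were taken by gene symbol from a table of 49492 gene rows, and all 6 were present. The table holds RNA sequencing counts from 4 libraries of whole testis of male C57BL/6J mice. By their labels all 4 samples had received LPS (lipopolysaccharide, a bacterial cell wall component), 2 of them with a short hairpin against Spry1, which restrains signalling from growth factor receptors (genotype Spry1 knockdown), and 2 with a control hairpin (genotype WT). The sources used here give neither the age of the mice, nor the route and target cells of the hairpin, nor whether replicates were separate animals. The p-values therefore reflect only the spread between these samples, and that spread may be technical.

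The table heads its count columns LPS and NC. Here NC is taken as the control hairpin and LPS as the Spry1 knockdown, although all 4 titles contain LPS. Should the headings mean treatment with and without LPS, the differences below would belong to that contrast. Samples are therefore named by heading, with log2 fold changes taken as LPS over NC columns. Spry1 counts were 26 and 17 (LPS columns) and 45 and 41 (NC columns), an edgeR log2 fold change of -0.82 ± 0.28 (SE) with a Benjamini-Hochberg adjusted p of 0.0212 that reached 0.300 over the alternatives. It overlaps the gene Gm42922, and its counts do not settle what the headings mean. The libraries held 17612342 to 22451132 counts, and spermatid markers summed to 17057 to 24213 CPM (counts scaled to the TMM-adjusted library size), so that the labelled tissue was represented.

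Ly6 proteins fold into a compact three-finger domain held by disulfide bonds, and most are tied to the outer cell membrane by a glycosylphosphatidylinositol (GPI) anchor. Ly6a, also called Sca-1, and the Ly-6C antigens Ly6c1 and Ly6c2 are classical markers of haematopoietic and stromal progenitors, monocytes, T cells and endothelium, and they are known to be induced by interferons. Ly6e is broadly expressed and also interferon-inducible. Ly6k is a germ cell protein that pairs with Tex101 and is required for sperm to pass into the oviduct, and Ly6h is mainly a brain protein that binds nicotinic acetylcholine receptors.

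All 6 genes are protein-coding and lie on chromosome 15 within 770.4 kb (mm10). Ly6k (ENSMUSG00000044678.11) runs from 74796874 to 74799986 on the minus strand, Ly6e (ENSMUSG00000022587.14) from 74955051 to 74959905 on the plus strand, and Ly6a (ENSMUSG00000075602.10) from 74994877 to 74998031 on the minus strand. Ly6c1 (ENSMUSG00000079018.10) runs from 75044018 to 75048830, Ly6c2 (ENSMUSG00000022584.14) from 75108158 to 75111970, and Ly6h (ENSMUSG00000022577.17) from 75551268 to 75567255, all on the minus strand.

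Ly6c1 and Ly6c2 are close copies, and this matters for how their reads can be told apart. In GENCODE transcripts, 21.5% of the 50-base stretches of Ly6c1 also occurred in Ly6c2 and 11.1% in Ly6a. For Ly6a, 15.0% occurred in Ly6c1 and 2.39% in Ly6i. For Ly6c2, 13.9% occurred in Ly6c1. Ly6e, Ly6h and Ly6k shared no such stretch with the other 5 members. Values of Ly6a, Ly6c1 and Ly6c2 are therefore uncertain to the extent that reads were split between them.

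The copies also resemble each other at the promoter. The RefSeq table (GRCm38.p6) held promoters of 2 of the 6 members, Ly6c1 and Ly6c2, as 300-base windows around a transcript start. The first listed start of each is shown on the gene's strand, because both genes had more counts in the LPS columns, with capitals marking stretches of at least 12 bases that are identical in an alignment of the pair.
Ly6c1 (chr15:75048788-75049087): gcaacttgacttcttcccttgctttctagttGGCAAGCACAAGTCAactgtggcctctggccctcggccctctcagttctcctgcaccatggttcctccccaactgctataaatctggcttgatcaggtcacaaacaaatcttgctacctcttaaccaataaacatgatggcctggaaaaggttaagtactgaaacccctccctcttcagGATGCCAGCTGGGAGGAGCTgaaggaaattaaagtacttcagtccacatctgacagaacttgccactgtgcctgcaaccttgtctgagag
Ly6c2 (chr15:75111922-75112221): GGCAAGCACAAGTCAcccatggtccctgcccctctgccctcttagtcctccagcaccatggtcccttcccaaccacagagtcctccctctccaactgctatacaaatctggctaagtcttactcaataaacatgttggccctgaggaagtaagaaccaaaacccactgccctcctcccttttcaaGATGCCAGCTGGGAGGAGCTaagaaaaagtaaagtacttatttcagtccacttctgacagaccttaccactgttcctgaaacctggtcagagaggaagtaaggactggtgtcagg
The windows matched at 208 of 266 aligned bases (78.2%), and the longest identical stretch was 20 bases. Neither these windows nor the second listed start of each gene held GAAA followed after 2 bases by another GAAA (an interferon-stimulated response element), TTCNNNGAA (a STAT-binding GAS element) or the NF-kB consensus on either strand, which occurred in 3.44%, 8.30% and 8.46% of 32851 promoter windows respectively. These motifs can overlap each other, and a missing match says only that the letters are not in the window.

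The interferon-inducible members Ly6a, Ly6c1 and Ly6e were higher in the LPS columns, the germ cell member Ly6k was slightly lower, and Ly6h was not called. Of the 6 members, 5 passed the filter on low counts, and of these 3 were higher, 1 was lower and 1 was not called by edgeR's quasi-likelihood test at a Benjamini-Hochberg adjusted p under 0.05. Over the 20855 genes tested the same rule called 31.5%, with 15.2% higher and 16.3% lower. The median log2 fold change was 1.67 over the 5 tested members and 0.00 over all tested genes. In all 6 members the LPS libraries lay apart from the NC libraries. The same held for 50.2% of the 34922 genes with any count and for 64.1% of those tested, so that this separation by itself does not set the members apart. In whole tissue, a change in the number of cells of a type and a change in RNA per cell cannot be told apart.

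Counts of Ly6a were 219 and 224 in the LPS columns and 5 and 12 in the NC columns, or 11.8 ± 1.01 CPM against 0.406 ± 0.253 CPM (SD, n = 2 per group), a ratio of 29.1. Both LPS libraries were far above both NC libraries, and Ly6a went from barely detected to a clear signal. The log2 fold change was 4.86 ± 0.24 (SE), with a Benjamini-Hochberg adjusted p of 9.60e-19 in edgeR's test, and 38 of the tested genes had a larger one. Without NC replicate 2, which held 12 of the 17 NC counts, it was 5.66. Per length of the gene model, Ly6a rose from 0.337 to 9.81 RPKM (CPM per kilobase), which moved it past Ly6e.

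Ly6e started from a higher level than Ly6a. Its counts were 392 and 421 in the LPS columns against 147 and 143 in the NC columns, or 21.7 ± 2.61 CPM against 6.82 ± 0.204 CPM (SD, n = 2 per group). The groups did not overlap, and the ratio was 3.18. The log2 fold change was 1.67 ± 0.11 (SE), with a Benjamini-Hochberg adjusted p of 1.67e-14 in edgeR's test, and it ranged from 1.54 to 1.79 over the alternatives.

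Ly6c1, one of the genes of the Ly-6C antigen, was counted 40 and 41 times in the LPS columns and 1 and 4 times in the NC columns. This corresponds to 2.16 ± 0.19 CPM against 0.120 ± 0.106 CPM (SD, n = 2 per group). Both NC libraries were near the limit of detection. The log2 fold change was 4.13 ± 0.46 (SE), with a Benjamini-Hochberg adjusted p of 4.48e-09 in edgeR's test. It was 3.43 when NC replicate 1 was left out and 5.39 when NC replicate 2 was, so its size rests on a handful of NC counts. Each of these fits leaves 1 NC library, assumed to vary like the LPS pair.

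Its copy Ly6c2, the Ly-6C gene typical of monocytes, was much less abundant, with 9 and 5 counts against 1 and 0, too few to pass the filter. The ratio of scaled counts was 15.8, with an exact 95% counting interval of 2.41 to 670.0. With no filter on low counts, edgeR gave a log2 fold change of 3.68 and a Benjamini-Hochberg adjusted p of 0.00643. DESeq2 gave an unadjusted p of 0.0337 and left the adjusted value undefined. In the LPS columns Ly6c1 stood at 1.29 ± 0.11 RPKM and Ly6c2 at 0.134 ± 0.046 RPKM (SD, n = 2).

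**Figure D1:**
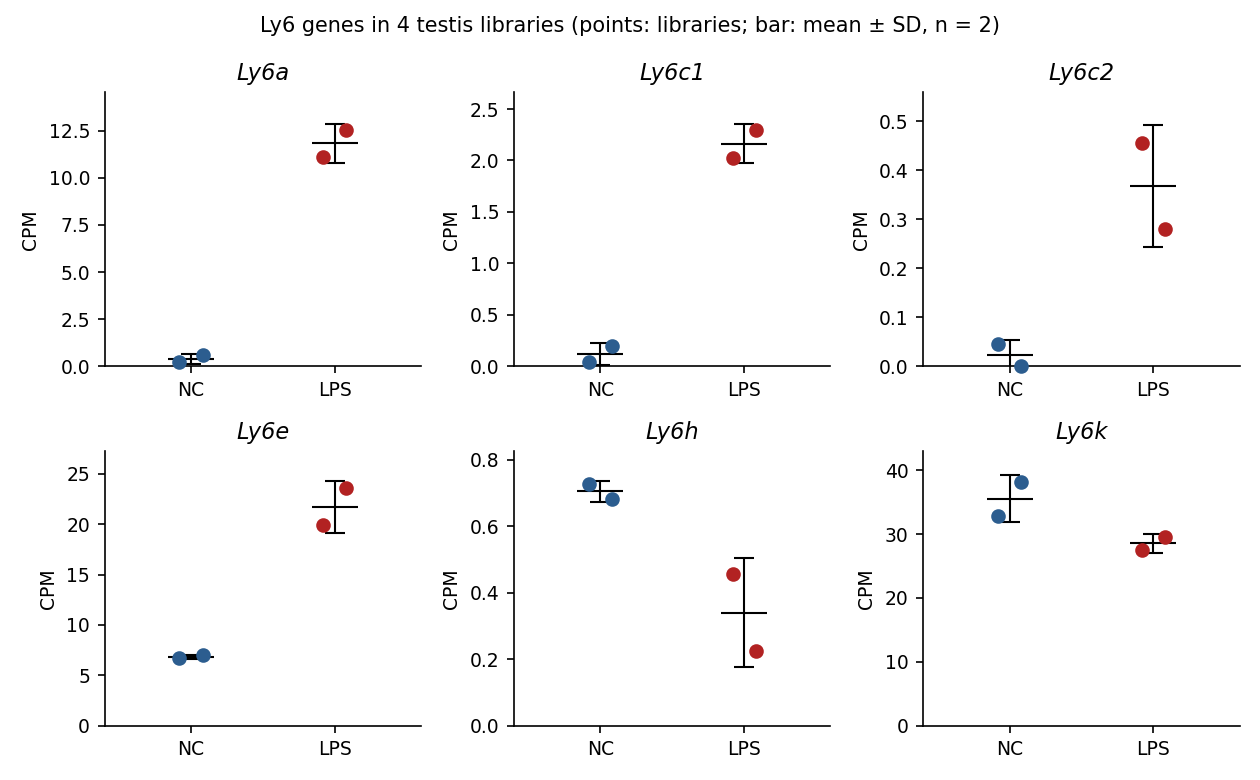
Level of each Ly6 gene in CPM (linear axis from 0, separate scale per gene) in the NC and LPS columns; points are libraries, bars are mean ± SD (n = 2). Ly6a, Ly6c1, Ly6c2 and Ly6e were higher in both LPS libraries, and Ly6h and Ly6k were lower in both.

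Ly6k, the partner of Tex101, was the most abundant member in every library. Its counts were 541 and 529 in the LPS columns and 724 and 782 in the NC columns, or 28.5 ± 1.54 CPM against 35.5 ± 3.68 CPM (SD, n = 2 per group). The groups did not overlap, but the closest pair of libraries, at 29.6 and 32.9 CPM, differed by less than the SD of the NC columns. The log2 fold change was -0.32 ± 0.08 (SE), with a Benjamini-Hochberg adjusted p of 0.00277 in edgeR's test, and 3722 tested genes had a more negative one. DESeq2 no longer called it (-0.31, adjusted p = 0.0626 by Benjamini-Hochberg), nor did edgeR when NC replicate 2 was left out (-0.21, adjusted p = 0.129), and the adjusted p ranged from 0.000382 to 0.129 over the alternatives.

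The whole Ly6k gene model lies inside the antisense gene Gm17189, which runs from 74784065 to 74800640 on the plus strand. Gm17189 had 451 and 444 counts against 609 and 644, a log2 fold change of -0.31 ± 0.09 (SE) with a Benjamini-Hochberg adjusted p of 0.00496 in edgeR's test. The library kit keeps strand, but no source used here gives the strand setting of the counting, so which of the pair a read came from is uncertain.

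Ly6h was counted 9 and 4 times in the LPS columns and 16 and 14 times in the NC columns, or 0.340 ± 0.164 CPM against 0.705 ± 0.032 CPM (SD, n = 2 per group). Both LPS values were below both NC values. The log2 fold change of -1.02 ± 0.47 (SE) did not pass (edgeR, Benjamini-Hochberg adjusted p = 0.0955, range over the alternatives 0.0848 to 0.527), and it was -1.63 without LPS replicate 1 and -0.62 without LPS replicate 2. At this depth a change of that size could not be separated from none.

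Per length, the members changed order between the groups. In the NC columns Ly6k led with 42.8 ± 4.44 RPKM, followed by Ly6e at 1.80 ± 0.05, Ly6a at 0.337 ± 0.210, Ly6h at 0.176 ± 0.008, Ly6c1 at 0.072 ± 0.063 and Ly6c2 at 0.0083 ± 0.0117 RPKM (SD, n = 2). The gaps between Ly6a and Ly6h and between Ly6c1 and Ly6c2 were about as large as their spread or smaller. In the LPS columns the order was Ly6k at 34.4 ± 1.86, Ly6a at 9.81 ± 0.84, Ly6e at 5.74 ± 0.69, Ly6c1 at 1.29 ± 0.11, Ly6c2 at 0.134 ± 0.046 and Ly6h at 0.085 ± 0.041 RPKM. There Ly6c2 and Ly6h overlapped. Ly6k made up 94.8% and 94.6% of the summed RPKM of the 6 members in the NC columns and 67.5% and 66.3% in the LPS columns.

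**Figure D2:**
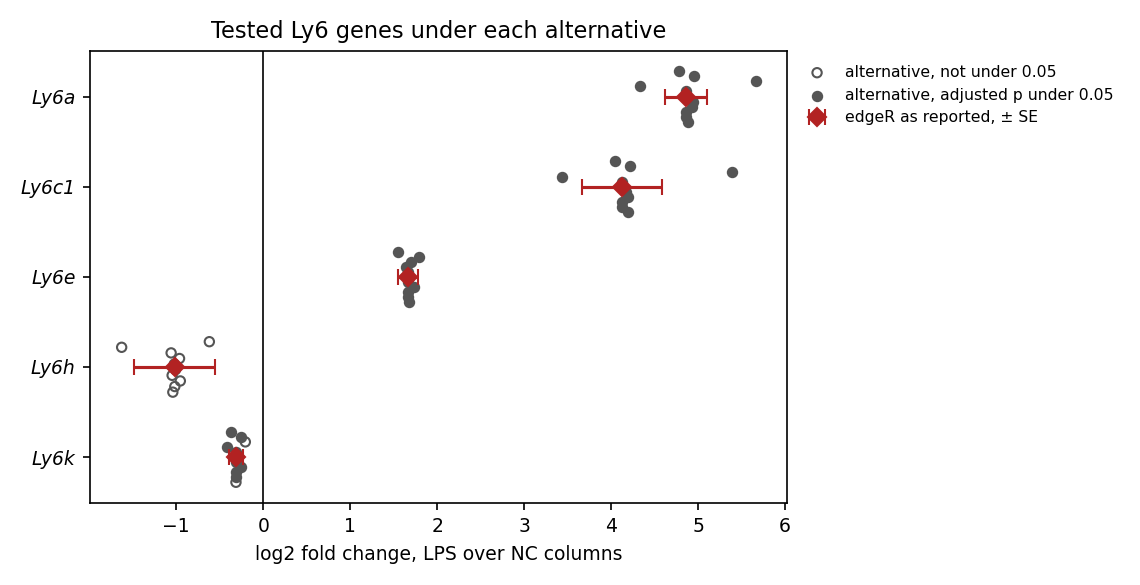
Log2 fold change of the 5 tested Ly6 genes, LPS over NC columns. Diamonds with bars are edgeR values ± SE and circles are the alternatives, open where the adjusted p was not under 0.05; Ly6a, Ly6c1 and Ly6e stayed above 0 with filled circles throughout, Ly6h had open circles throughout, and Ly6k had 2 open circles.

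Between Ly6k and Ly6h the table lists 36 rows, of which 30 are no members and 16 are annotated as pseudogenes. Only 5 of these 30 passed the filter, and 0 were higher, 3 were lower and 2 were not called. Among all tested genes 15.2% were higher and 16.3% lower. Besides Gm17189, the lower ones were Gml, a testis gene of the same protein family (433 and 307 counts against 610 and 544, log2 fold change -0.47 ± 0.09), and 2010109I03Rik (52 and 37 counts against 80 and 70, log2 fold change -0.57 ± 0.21, SE). Among the tested genes of the locus, those called higher were thus the members Ly6e, Ly6a and Ly6c1. All 5 tested non-members lie between Ly6k and Ly6e or overlap Ly6k, so from Ly6e to Ly6h only members were tested. Whether the members differ there from their neighbours, such as the untested Ly6i between Ly6e and Ly6a, therefore cannot be read from these calls. The edgeR calls of 2010109I03Rik and Gm17189 were lost in several alternatives, with Benjamini-Hochberg adjusted p up to 0.335 and 0.135.

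Ly6g, the granulocyte antigen that gives neutrophils their usual antibody label, lies beyond Ly6c2 in the same interval. Its NC libraries held 4 and 6 counts and both LPS libraries held 0. With 3 counts taken as the floor for the 2 LPS libraries together, Ly6g was 2.95-fold lower. This figure takes the NC counts as exact, so it is not a lower limit. Ly6g did not pass the filter on low counts, and with no filter edgeR called it lower (Benjamini-Hochberg adjusted p = 0.0254). The pseudogene 9030619P08Rik went the other way, with 0 counts in each NC library against 4 and 5 in the LPS pair. It was 3.40-fold higher against the same floor, with the LPS counts taken as exact. With no filter edgeR called it higher (Benjamini-Hochberg adjusted p = 0.0213). Of the 13 untested non-members of the interval with any count, this fit called 1 higher and 1 lower. Over all 34922 genes with any count it called 3220 higher and 3326 lower. For Ly6g and 9030619P08Rik DESeq2 left the adjusted p undefined, as for Ly6c2. Ly6i had 1 and 2 counts against 0 and 1, and Ly6f was at 0 in all 4 libraries.

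**Figure D3:**
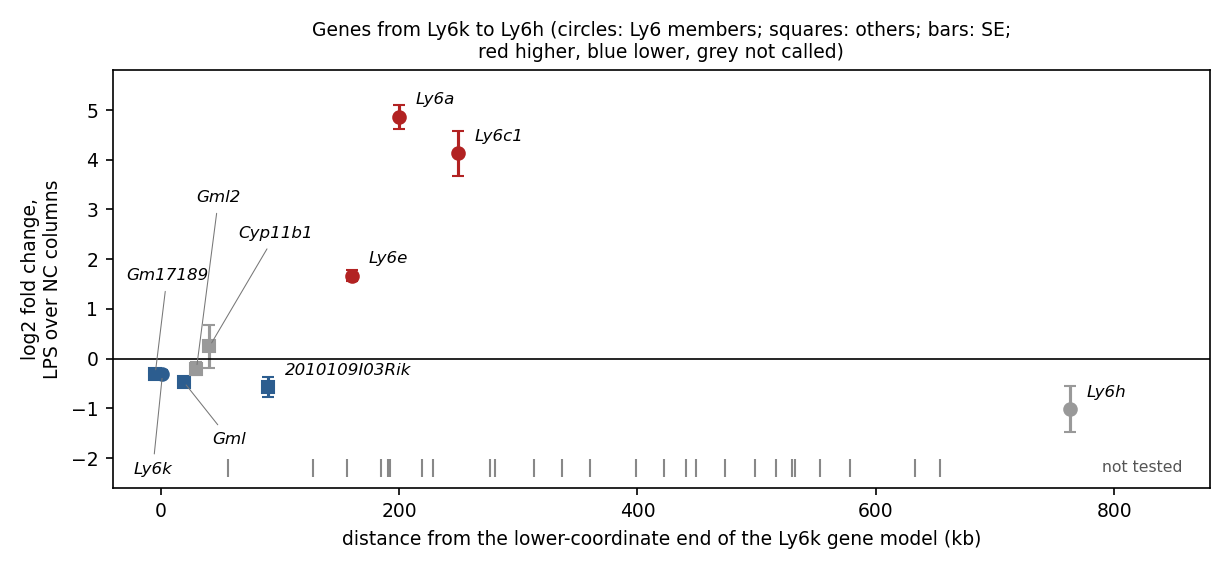
Log2 fold change ± SE (LPS over NC columns) of the tested genes from Ly6k to Ly6h against distance in kb from the lower-coordinate end of Ly6k; ticks at the bottom mark genes too low to be tested. Ly6e, Ly6a and Ly6c1 were called higher, and Ly6k, Gm17189, Gml and 2010109I03Rik lower.

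Other genes of the Ly6/uPAR family, which share the three-finger fold, were also read from the fit across all genes. Of 42 listed, 37 were in the table and 18 were tested, with 1 higher, 3 lower, 14 not called and a median log2 fold change of -0.07, where 31.5% of all tested genes were called. Cd59a, which blocks the complement membrane attack complex, had 231 and 214 counts against 189 and 197, a log2 fold change of 0.38 ± 0.12 (SE). The 3 that were lower were Gml, Psca (75 and 55 counts against 111 and 103, log2 fold change -0.54 ± 0.18) and the acrosomal protein gene Acrv1 (2137 and 1947 counts against 2969 and 2704, log2 fold change -0.29 ± 0.06). DESeq2 called neither Cd59a nor Psca (adjusted p = 0.183 and 0.250 by Benjamini-Hochberg), and edgeR called neither when NC replicate 1 was left out (adjusted p = 0.118 and 0.0597). Psca also lost its edgeR call when LPS replicate 2 was left out (adjusted p = 0.157).

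Abundant family genes of testis included both called and uncalled genes. Acrv1 and Gml, given above, were lower, and 4 further abundant ones were not called. Lypd4, a sperm protein, was at 139.9 ± 4.19 CPM against 146.0 ± 5.58 CPM, Ly6g6c at 46.9 ± 1.05 against 46.7 ± 3.60 CPM, and the sperm membrane gene Spaca4 at 23.9 ± 2.70 against 25.2 ± 1.51 CPM (SD, n = 2 per group). Tex101, with which Ly6k pairs, was at 57.9 ± 4.39 CPM against 53.2 ± 2.86 CPM, a log2 fold change of 0.12 ± 0.07 (SE; edgeR, Benjamini-Hochberg adjusted p = 0.173). Scaled by library totals alone, Tex101 passed as higher (log2 fold change 0.19, adjusted p = 0.0371 in edgeR). Whether Ly6k and Tex101 differ in their response was not tested.

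**Figure D4:**
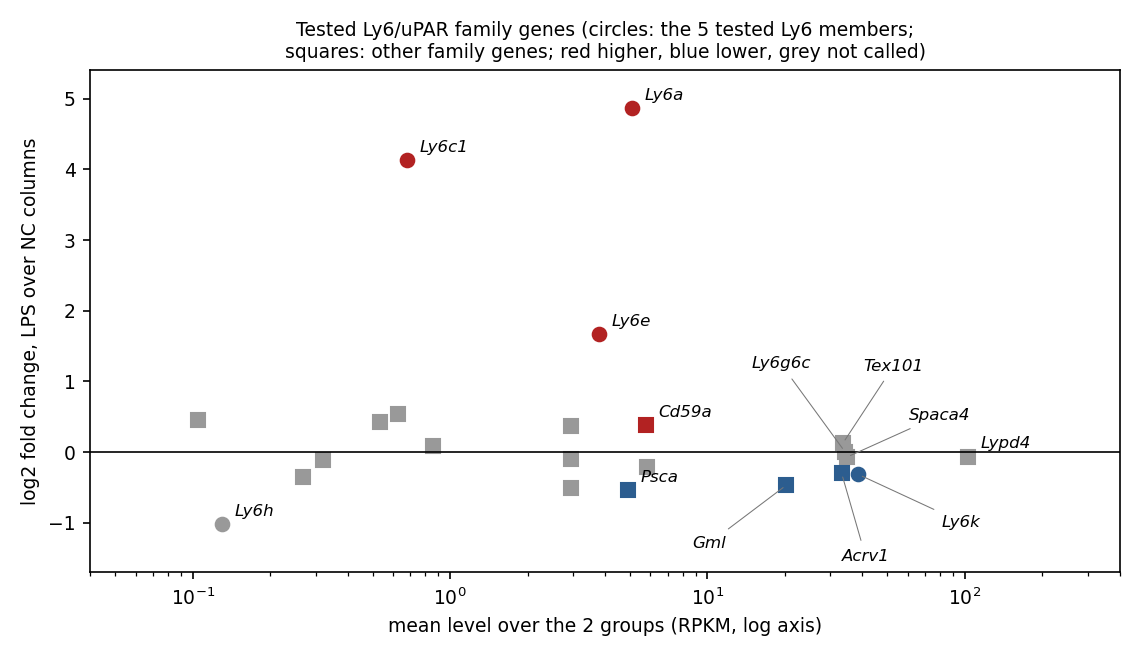
Log2 fold change (LPS over NC columns) against mean level in RPKM (log axis) of the tested Ly6/uPAR family genes; circles are Ly6 members and squares the other 18. Ly6a, Ly6c1 and Ly6e lie above 1.5, while the other 18 lie between -0.54 and 0.54.

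Genes listed for sperm surface maturation around Tex101 and Adam3, with Tex101 itself among them, moved by small amounts where named here. Of 16 listed, 15 were tested, with 0 higher, 5 lower and 10 not called, against 15.2% higher and 16.3% lower over all tested genes. Their median log2 fold change was -0.07. Adam3, the sperm adhesion protein whose maturation needs Tex101, was at 437.8 ± 24.7 CPM against 505.4 ± 6.86 CPM, a log2 fold change of -0.21 ± 0.05 (SE), and Ace, the testis form of which releases Tex101 from sperm, at -0.17 ± 0.05. Adam1a and Adam1b had log2 fold changes of -0.29 ± 0.05 and -0.23 ± 0.05. In edgeR's test Adam3 lost its call when LPS replicate 2 was left out (adjusted p = 0.0513), and Ace when scaled by library totals alone (adjusted p = 0.100) and on leaving out LPS replicate 1 (adjusted p = 0.122) and, separately, NC replicate 1 (adjusted p = 0.177).

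Germ cell markers stand beside these values, and over all tested genes 15.2% were called higher and 16.3% lower. Of 13 tested spermatid markers, of which Acrv1 is also in the family list, 11 were lower, 1 was higher and 1 was not called, with a summed level of 17057 to 17474 CPM in the LPS columns and 23318 to 24213 CPM in the NC columns. Of 12 tested spermatocyte markers, 4 were higher and 2 lower, with sums of 2881 to 3037 CPM and 3069 to 3150 CPM. None of either list was at 0 in all libraries. Their part in the Ly6k value was not tested.

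Interferon-stimulated genes, the class to which Ly6a, Ly6c1, Ly6c2 and Ly6e belong as known targets, were higher throughout the list examined. Of 25 interferon-stimulated genes, 24 were tested and all 24 were higher, against 15.2% higher over all tested genes. Their median log2 fold change was 2.61, against 0.00 over all tested genes. Irf7, a transcription factor of the response, had 307 and 296 counts against 14 and 21, a log2 fold change of 4.28 ± 0.18 (SE), and the GTPase gene Iigp1 had 134 and 119 against 10 and 14, a log2 fold change of 3.56 ± 0.24. Ly6a lay above and Ly6e below the median of this list. The part of interferon signalling in the Ly6 values was not tested.

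Upstream signalling genes were higher in part. Among receptors and JAK-STAT genes, 12 of 15 were tested, with 7 higher, 0 lower and 5 not called. This stands against 15.2% higher and 16.3% lower over all tested genes. Their median log2 fold change was 0.43. Stat2 had 276 and 235 counts against 104 and 122, a log2 fold change of 1.35 ± 0.13 (SE). Ifngr1, a receptor chain for interferon gamma, was at -0.27 ± 0.13, and the kinase gene Jak1 at 0.15 ± 0.08, neither called by edgeR's test. Leaving out LPS replicate 1 made Ifngr1 pass as lower (-0.47, edgeR adjusted p = 0.0149), and Jak1 passed as higher when scaled by library totals alone (0.21, edgeR adjusted p = 0.0336) and on leaving out NC replicate 1 (0.25, edgeR adjusted p = 0.0375). The interferon genes Ifng and Ifnb1 were at 0 in all 4 libraries, which allows up to 0.136 to 0.168 CPM per library by a floor of 3 counts, for counting error only.

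Markers of the cells that carry Ly6a and Ly-6C moved in both directions. Of 13 tested monocyte and macrophage markers, 7 were higher, 3 lower and 3 not called, against 15.2% higher and 16.3% lower over all tested genes. The list summed to 111.5 to 121.9 CPM in the LPS columns and 79.8 to 87.4 CPM in the NC columns. Cd14 had 33 and 48 counts against 9 and 7, and Itgam had a log2 fold change of 2.68 ± 0.18, while Cx3cr1 was at -0.91 ± 0.13 and Csf1r at -0.74 ± 0.14 (SE). Ccr2, the receptor of Ly-6C monocytes, had 11 and 9 counts against 5 and 14, with overlapping groups. None of the list was at 0 in all libraries, and its part in the Ly6c1 and Ly6c2 values was not tested.

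Of 11 neutrophil markers, 3 were tested, with 2 higher and 0 lower, against 15.2% higher over all tested genes. The sum was 4.21 to 4.76 CPM against 1.41 to 1.51 CPM. Of the 2, Mpo (log2 fold change 1.14) was not called by DESeq2 (adjusted p = 0.262 by Benjamini-Hochberg). Some fits that left out a library also lost the edgeR call of Mpo. S100a9, a calcium-binding protein of neutrophils and activated monocytes, was counted 35 and 32 times in the LPS columns and never in the NC columns. This was opposite to the Ly6g counts above. Of 14 lymphocyte markers 5 were tested, with 1 higher and 1 lower, where 31.5% of all tested genes were called. The sums were 9.99 to 11.2 CPM and 9.45 to 9.68 CPM. The part of these lists in the Ly6 values was not tested.

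Endothelial markers, which matter because Ly6a and Ly6c1 are expressed on vessels, did not move one way. Of 15 tested, 5 were higher, 3 lower and 7 not called, against 15.2% higher and 16.3% lower over all tested genes. Their sums overlapped between the groups, at 43.1 to 47.5 CPM and 41.2 to 49.5 CPM. The part of endothelial markers in the Ly6a and Ly6c1 values was not tested. Of 12 interstitial stromal and peritubular markers, all tested, 8 were higher, 0 lower and 4 not called, with sums of 430.6 to 454.7 CPM and 285.6 to 290.0 CPM, and Col3a1 had the largest log2 fold change among them at 1.18 ± 0.08 (SE). The part of stromal markers in the Ly6a value was not tested.

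Genes of GPI anchor synthesis and remodelling moved in both directions. Of 30 genes, 29 were tested, with 5 higher, 2 lower, 22 not called and a median log2 fold change of 0.03, against 31.5% called over all genes. Pigm, a mannosyltransferase of anchor synthesis, was lower at -0.34 ± 0.07 (SE), and Pigq, which acts in the first step, was higher at 0.47 ± 0.08. Pigx (0.52) and Pigu (0.49) were also called higher and Pigt (-0.25) lower. DESeq2 called none of Pigx, Pigu and Pigt (adjusted p = 0.402, 0.229 and 0.117 by Benjamini-Hochberg). Of 16 nicotinic receptor subunit genes, the class that Ly6h binds in neurons, 10 were tested. Among these, 0 were higher, 2 lower and 8 not called, against 16.3% lower over all tested genes. The 2 were Chrna2 (-0.69 ± 0.18) and Chrna5 (-0.47 ± 0.17), neither of them called by DESeq2 (adjusted p = 0.126 and 0.327 by Benjamini-Hochberg). In edgeR's test Chrna2 also lost its call when LPS replicate 1 was left out (adjusted p = 0.0816), and Chrna5 when scaled by library totals alone (adjusted p = 0.0700) and on leaving out LPS replicate 2 (adjusted p = 0.166) and, separately, NC replicate 1 (adjusted p = 0.270). Chrna7 had 6 and 13 counts against 11 and 12, and was not called.

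The genes most like each called member were sought over the 4 libraries by the Euclidean distance between log2(CPM + 0.5) values centred on each gene's mean. The 0.5 CPM added shrinks the differences of genes near 0, so that genes at a small distance can still differ in fold change. Ly6a was nearest to Irf7 (distance 0.185), the class I MHC gene H2-Q1 (0.186) and Gm10260 (0.344), and 2 tested genes lay within 0.2. For Ly6c1 the nearest were Hcls1 (0.089), which encodes an adaptor of blood cells, and Fcamr (0.115), an immunoglobulin receptor gene, with 6 genes within 0.2. For Ly6e they were the cholesterol exporter gene Abca1 (0.050), Gm20797 (0.072) and Amotl2 (0.079), with 23 within 0.2. For Ly6k they were Gm17067 (0.011), Tgm3 (0.019) and its antisense partner Gm17189 (0.024), but 1429 genes lay within 0.2, so that its profile was shared widely.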

How the data were processed

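RNA was sequenced from 4 testis libraries. The authors deposited raw read counts per gene with gene length, in a table with the columns of featureCounts per the file headers. The submitters' processing notes name mm10, STAR (2.5.3a), Trimmomatic (0.36), Subread (1.5.1) with featureCounts, DESeq and edgeR (3.12.1), without roles; no source used here gives the annotation or strand setting. The length column was used as deposited for RPKM.

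Counts were filtered with filterByExpr, scaled by TMM and tested with edgeR 4.0.16 (quasi-likelihood, Benjamini-Hochberg over 20855 genes, adjusted p under 0.05; 2 residual and 34 prior degrees of freedom). SE is implied by the F statistic. Replicates differed by more than sampling noise (chi-square per degree of freedom 2.31 and 2.20). Alternatives were DESeq2 1.42.0, limma-voom 3.58.1, other scalings and filters, a replicate block and leaving out each library.

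Members and lists were chosen with earlier results of these data known. Named genes were the members, called and the 6 most abundant family genes, at most 2 called genes per list and direction with a few fixed pathway genes, the 3 nearest profiles and called neighbours. Some genes named by this rule are not reported here. Ly6g, Ly6i, Ly6f, 9030619P08Rik, Pigq, Ccr2, Ifng and Ifnb1 were added after their values were seen. Gene IDs are from GENCODE mouse release 21 by symbol and identical coordinates.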

Additional observations from a re-analysis of the deposited data

How the results depend on the processing

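Over the 11 alternatives, Ly6a, Ly6c1 and Ly6e stayed higher and called, and no call of a gene named by the rule reversed. Uncalled ones could change sign, such as Chrna7 (log2 fold change -0.09, but 0.43 without LPS replicate 1). Of 62 genes named by the rule that were called, 43 kept their call in every alternative that tested them and 19 lost it at least once. Of those not called, Tex101, Ifngr1, Jak1 and Gm17067 passed in at least 1 alternative. Leaving out a library leaves 1 in its group, assumed to vary like the pair of the other group, so these fits test stability weakly. The 1 call of a lower member, Ly6k, became 0 with DESeq2, and leaving out 1 library gave 0 to 1 (0 without NC replicate 2). Over all genes DESeq2 called 1367 higher and 1743 lower, against 3169 and 3394 with edgeR. Scaling by library totals alone called 4207 higher and 2579 lower, which puts 62% of calls on the higher side against 48.3% with TMM. The cause of these differences was not tested. Same-numbered replicates did not clearly pair (correlation of deviations 0.0182 over 20855 genes), and a fit with the replicate number as a block called 3376 higher and 3594 lower and changed no call of a member. Depth limits Ly6c2 and Ly6h most, whose libraries held 0 to 16 counts.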
